A study of Mus musculus with 72 samples.

Results

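Imprinted genes are expressed mainly from 1 parental copy, and 10 of them, chosen as genes of imprinted loci with CTCF boundaries, were examined: H19, Igf2, Kcnq1ot1, Dlk1, Meg3, Peg3, Peg10, Mest, Grb10 and Plagl1. The members were taken by name, and their data were the ChIP-seq peaks within 50 kb of each gene body, CTCF in mouse embryonic stem cells (ESCs) and the histone marks H3K27ac and H3K27me3 and the protein Brd3 in mouse embryonic fibroblasts (MEFs). Gene bodies were those of GENCODE vM1 on the mm9 genome, which holds 9 of the 10 genes among 37273. Kcnq1ot1 has no record there, so peaks were counted around its start alone and kept apart from the others. The windows of H19 and Igf2 overlapped, as did those of Dlk1 and Meg3, which left 7 loci. Peaks of the 4 libraries of an antibody that overlapped by 1 bp or more were joined into a site. The 7 loci held 182 of the 216113 sites of the 4 antibodies, of which 52 were CTCF, 95 H3K27ac, 33 Brd3 and 2 H3K27me3.

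The study compared wild-type cells (WT, Hmgn1+/+ and Hmgn2+/+) with double knockout cells (DKO, Hmgn1-/- and Hmgn2-/-), which lack the nucleosome-binding proteins HMGN1 and HMGN2. All cells were of the C57BL/6 strain and untreated, and each antibody had 2 libraries per genotype. MEFs came from WT and DKO mice. The study calls its ChIP libraries biological replicates, and whether those of a genotype came from separate cultures, clones or animals is not given in the sources used here. Peak lists do not separate the 2 parental copies, so a value stands for both together, and p-values measure only the spread between these libraries. For each cell type the labels list a single input library per genotype, and in ESCs also a single PE input. Where an input served as background, its own noise is not part of that spread and cannot be told apart from genotype.

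Imprinted clusters are set by control regions that carry DNA methylation on 1 parental copy. At H19 and Igf2 the zinc finger protein CTCF binds the unmethylated maternal control region and keeps the enhancers beyond H19 from reaching Igf2, a fetal growth factor gene. H3K27ac marks active promoters and enhancers, Brd3 is a reader of acetylated histones, and H3K27me3 is deposited by Polycomb at silent genes.

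The CTCF lists held 62069 and 62772 peaks in WT and 64629 and 64634 in DKO. Those of H3K27ac held between 76968 and 84850, those of Brd3 31404 and 33072 in WT against 8970 and 11549 in DKO, and those of H3K27me3 between 117 and 553. In MEFs all 10 fibroblast genes examined (among them Col1a1, Twist1 and Pdgfra) had an H3K27ac peak within 1000 bp of a transcript start in each library, and none of 4 stem cell, 4 B cell and 4 epithelial genes had one. In ESCs all 7 pluripotency genes had a Nanog or Oct4 peak within 50 kb in each library. Of the targeted genes, Hmgn2 had 3 and 3 H3K27ac peaks near its starts in WT and 0 and 0 in DKO, while Hmgn1 had 2 and 2 in WT and 4 and 5 in DKO. The files hold no read counts. A measure of depth, the lowest background in reads per position that a peak's fold enrichment and −log10 p together imply, could be had in MEFs and not for CTCF.

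CTCF sequences at the loci were read from mm9 first, because the control region between H19 and Igf2 and the strongest sites of each locus carry much of what follows. The form of the CTCF motif repeated in the H19 control region, searched as CGNGGNGGC on both strands, occurred 3 times within the sites called just upstream of H19, at 2168, 2623 and 3893 bp upstream of the H19 start. Capitals mark these letters.
H19 control region, chr7:149766205-149766234, minus strand: gacgatgccgCGTGGTGGCagtacaatact
H19 control region, chr7:149766660-149766689, minus strand: gatgctaccgCGCGGTGGCagcatactcct
H19 control region, chr7:149767930-149767959, minus strand: ggagttgccgCGTGGTGGCagcaaaatcga
All 3 copies lay on the minus strand, as H19 does. Within 100 bp of the summit this form was found at 3 of the 52 member sites (5.77%), 2.37% of all 70857 CTCF sites and 1.08% of positions 5000 bp away. The third of these member sites lay at the other end of the locus, in an exon of Mrpl23.

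The strongest CTCF site of each locus, by mean −log10 q, and the sites within Meg3 that differed between genotypes are shown with a short form of the general motif in capitals, searched as CCNNNAGNNGG on both strands. The 2 forms can overlap, and site 7 of H19-Igf2 held both within 100 bp of its summit.
Strongest site of H19-Igf2, chr7:149858228-149858257, plus strand: cttgacatctggtggtcatttaagagattg
Strongest site of Dlk1-Meg3, chr12:110676107-110676136, plus strand: aggagacccgCCGGCAGGGGGcgcagccag
Strongest site of Peg3, chr7:6641639-6641668, minus strand: ctgtggaaaCCAGAAGAGGGcatcagatcc
Strongest site of Peg10, chr6:4749548-4749577, minus strand: ctacaggtgCCAGAAGAGGGcgctggacca
Strongest site of Mest, chr6:30687126-30687155, plus strand: cgcccccgctgggccagcctgcgttcgcag
Strongest site of Grb10, chr11:11873576-11873605, plus strand: tttccctgggcttgctgtagtctttggctg
Strongest site of Plagl1, chr10:12807193-12807222, plus strand: tcctcaaaggCCACTAGAGGGtgcacgtga
Meg3 site 7, chr12:110780370-110780399, plus strand: ctattgatggCCGCAAGAGGGcgctggtgg
Meg3 site 8, chr12:110781241-110781270, minus strand: acatagagaCCGCTAGGGGGcgcgcggccc
Meg3 site 9, chr12:110781948-110781977, minus strand: ccttggcatCCAGAAGGTGGtcctggaaga
Stretches without capitals had no match within 100 bp of the summit and are centred on it. The short form was found at 26 of the 52 member sites (50%), at 63.3% of all CTCF sites and at 10.6% of positions 5000 bp away. The longer CTCF core motif was found at 6 member sites (11.5%), at 11.9% of all sites and at 0.179% of positions 5000 bp away. A match is a description, and a missing match says only that these letters were not in the window.

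CTCF occupied the imprinted loci in both genotypes, with 47 and 45 peaks in WT and 45 and 46 in DKO. The numbers overlapped (46.0 ± 1.41 against 45.5 ± 0.707, SD, n = 2 each, two-sided exact permutation p = 1, where 2 against 2 cannot go below 0.33). Of the 52 sites 37 were called in all 4 libraries (71.2%), against 79.7% of all CTCF sites. A single site was WT-only, called in the pair of WT libraries with no DKO call, against 1.31% of all sites, and 3 were DKO-only (5.77% of the 52), against 2.89% of all sites. With a library left out, WT-only sites numbered 3 without WT replicate 2 or DKO replicate 1 and 4 without DKO replicate 2, and DKO-only sites 5 without WT replicate 2. Over all sites WT-only numbers rose from 931 to 2137, 1655 and 1636 in that order, and DKO-only numbers from 2048 to 3591. By position of the summit 22 sites lay between genes, 16 in introns and 14 in exons, and 17 were within 1000 bp of a transcript start.

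CTCF fold enrichment at these sites moved both up and down in DKO, as it did over all CTCF sites tested. The fold enrichment of a peak is the pileup at its summit over the local background. Higher and lower refer to this ratio, which moves with the background as well as the pileup. At Peg10 site 1, where it was lower in DKO, −log10 q was 33.2 and 38.0 in WT and 39.3 and 47.4 in DKO. At Peg3 site 2, also lower, −log10 q fell from 130.9 and 134.4 to 119.4 and 103.7. The part of the background was not tested. Fold enrichment was compared at the 37 sites called in all 4 libraries, each library centred on its median. Of these 19 passed limma with Benjamini-Hochberg adjustment over all 56473 sites tested, 10 higher and 9 lower in DKO. That share, 51.4%, stood beside 44.6% of all sites tested, of which 11844 were higher and 13322 lower. The median log2 change was 0.12 at the loci, with a range from -1.14 to 1.34, and -0.03 over all sites. A change of at least 1 on the log2 scale was found at 4 of the 37 sites and at 9.74% of all sites tested. Without centring 10 member sites were higher and 7 lower, against 13026 and 11771 of all sites tested. The plot of CTCF fold enrichment by site shows these values for each library.

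**Figure D1:**
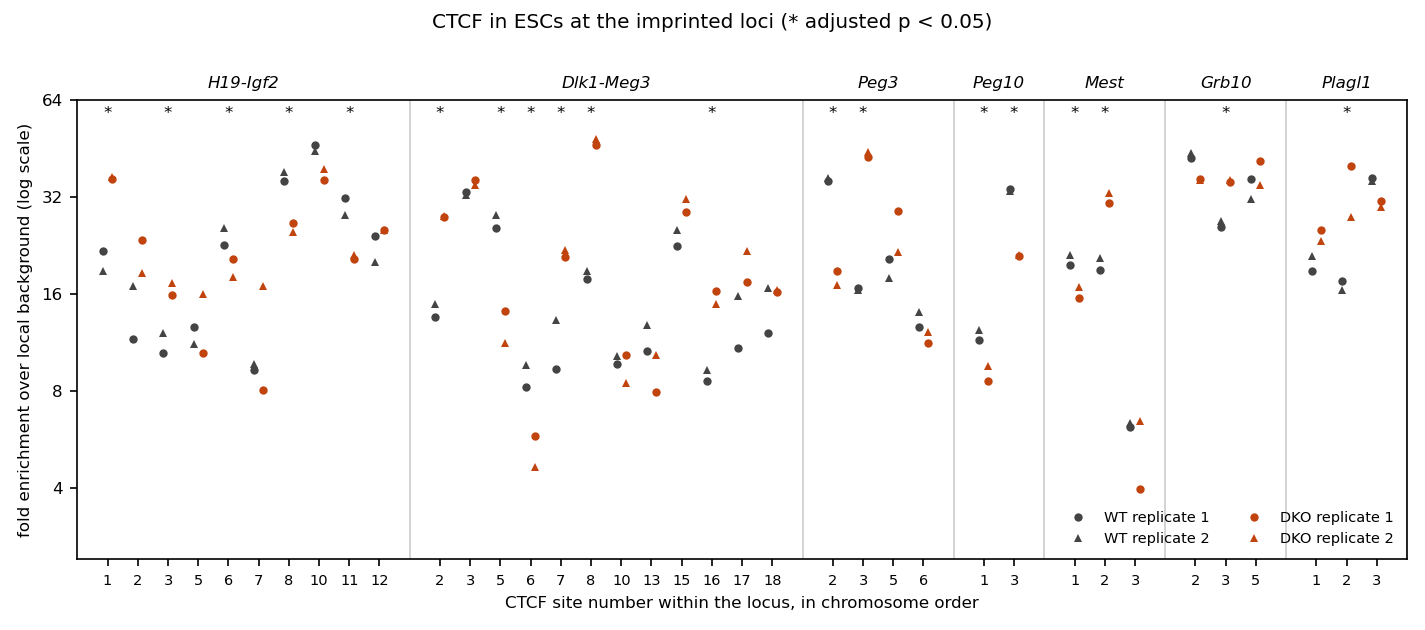
CTCF fold enrichment (log scale, vertical) at the 37 member sites called in all 4 ESC libraries, by locus and site number; each point is 1 library, grey for WT and orange for DKO, and asterisks mark the 19 sites with an adjusted p under 0.05. The widest gaps were at Dlk1-Meg3 site 8 and Peg3 site 3, higher in DKO, and at Dlk1-Meg3 site 5 and Peg3 site 2, lower in DKO.

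At H19 and Igf2 the locus held 12 CTCF sites, 10 of them in all libraries. H19 encodes a maternally expressed noncoding RNA (chr7:149761434-149764048, minus strand), and Igf2 lies at chr7:149836673-149852721 on the same strand. Neighbouring sites 5, 6 and 7 lay just upstream of H19, and the copies of the H19 form lay in sites 6 and 7. Site 6, chr7:149765847-149767002, held 2 copies of the H19 form shown above. Its fold enrichment was 22.7 and 25.6 in WT and 20.4 and 18.1 in DKO (log2 change -0.37 ± 0.12 SE, limma adjusted p = 0.049). WT and DKO did not overlap there, yet the call was lost with any 1 of the 4 libraries left out (limma adjusted p from 0.072 to 0.18), and was also lost without centring and with a replicate block. The site nearest H19, chr7:149765057-149765282, had 12.6 and 11.1 in WT and 10.5 and 16.01 in DKO, which overlapped (log2 change 0.08 ± 0.23 SE, limma adjusted p = 0.8). At the site farthest from H19, chr7:149767590-149768236, with the third copy, values were 9.27 and 9.71 in WT and 8.06 and 16.9 in DKO. DKO replicate 2 stood above both WT libraries and DKO replicate 1 below them (log2 change 0.25 ± 0.35 SE, limma adjusted p = 0.6).

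Other sites of this locus moved in both directions. The strongest, chr7:149858006-149858406, lay 5.52 kb upstream of Igf2 and had fold enrichments of 46.2 and 44.3 in WT and 36.2 and 39.01 in DKO (log2 change -0.32 ± 0.11 SE, limma adjusted p = 0.064). The libraries of the 2 genotypes did not overlap, and the change missed the threshold. Sites 8 and 11 were lower in DKO. The one between the genes, chr7:149796355-149796873, 32.6 kb upstream of H19, had 35.9 and 38.3 in WT and 26.6 and 24.9 in DKO (log2 change -0.58 ± 0.10 SE, limma adjusted p = 0.0087). The other, chr7:149861574-149861932, 9.05 kb upstream of Igf2, had 31.7 and 28.1 in WT and 20.4 and 21.1 in DKO (log2 change -0.57 ± 0.12 SE, limma adjusted p = 0.014), and its call was lost without WT replicate 1 (limma adjusted p = 0.055), without DKO replicate 1 (limma adjusted p = 0.067) and without DKO replicate 2 (limma adjusted p = 0.05034). Beyond the other end of H19, sites 1 and 3 were higher in DKO and site 2 did not pass. In an exon of Mrpl23, a mitochondrial ribosomal protein gene, chr7:149718923-149719410 had 21.7 and 18.8 in WT and 36.3 and 36.9 in DKO (log2 change 0.81 ± 0.12 SE, limma adjusted p = 0.0054). In an intron of Nctc1, a noncoding gene, chr7:149738415-149738718 had 10.5 and 12.1 in WT and 15.8 and 17.3 in DKO (log2 change 0.51 ± 0.12 SE, limma adjusted p = 0.023), and its call was lost without WT replicate 1 (limma adjusted p = 0.093), without DKO replicate 1 (limma adjusted p = 0.053) and without DKO replicate 2 (limma adjusted p = 0.11). Between them, in an intron of Mrpl23, chr7:149723611-149724176 had 11.6 and 16.9 in WT and 23.5 and 18.6 in DKO (log2 change 0.52 ± 0.21 SE, limma adjusted p = 0.096). An exon of Nctc1 also held a site seen in DKO alone, chr7:149741674-149741895, with fold enrichments of 7.33 and 9.17.

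**Figure D2:**
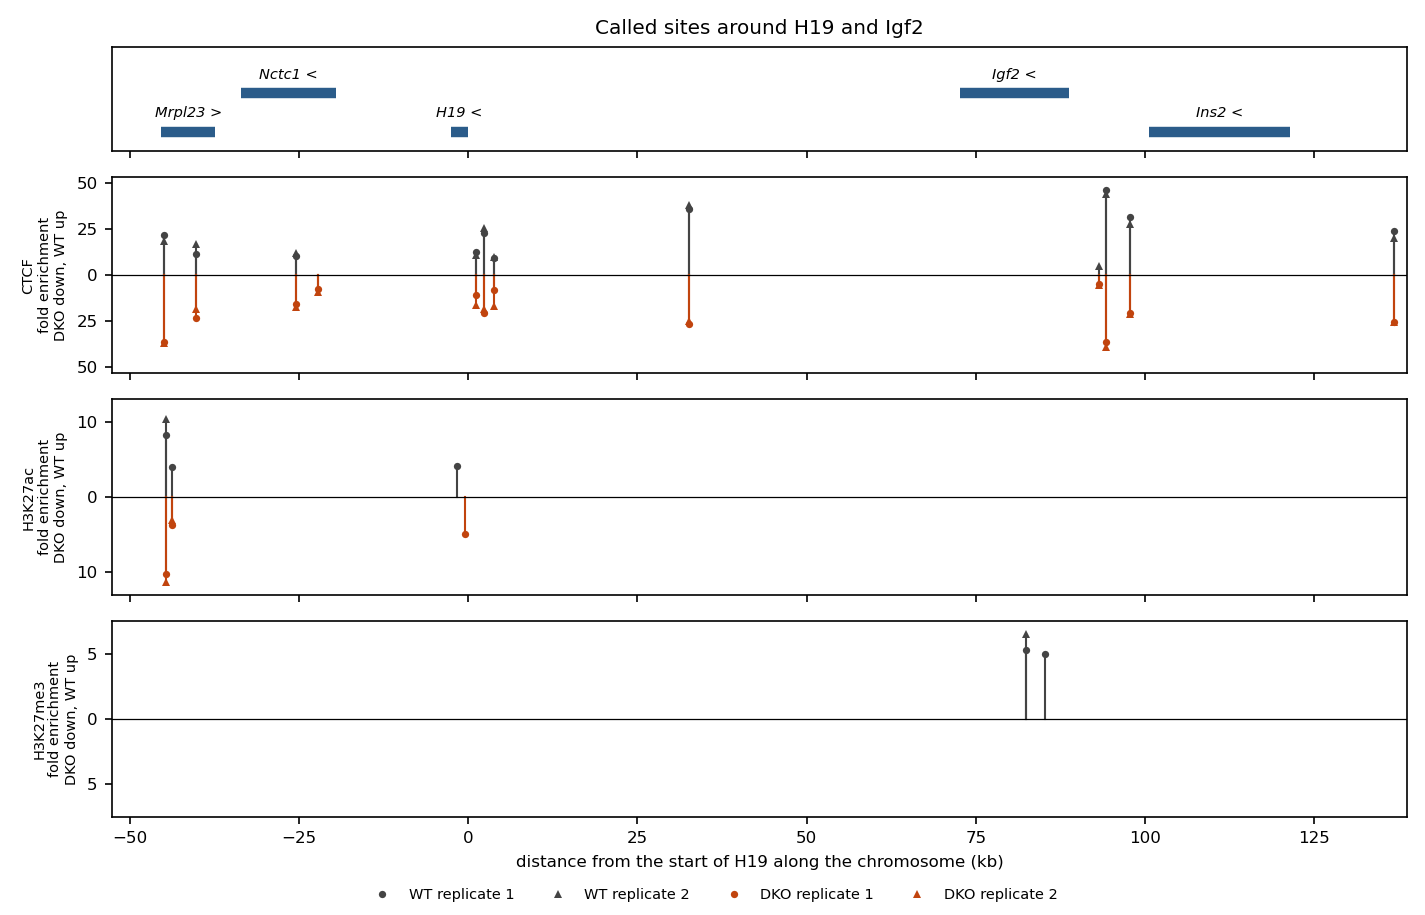
Called sites of CTCF (ESCs), H3K27ac and H3K27me3 (MEFs) around H19 and Igf2, by distance from the H19 start (kb, horizontal) and fold enrichment (vertical, WT drawn upward in grey and DKO downward in orange, 1 marker per library). CTCF stood at the control region just upstream of H19 in all 4 libraries, and both H3K27me3 sites lay in Igf2 and carried WT markers alone.

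At Dlk1 and Meg3 CTCF had 18 sites, 12 in all libraries, of which 4 were higher and 2 lower in DKO, with log2 changes from -1.14 to 1.33. Dlk1 (chr12:110691033-110701546) encodes a membrane protein of the Notch ligand family and is expressed from the paternal copy, and Meg3 (chr12:110779211-110809936) is a maternally expressed noncoding RNA. Just inside Meg3 lay 3 adjacent sites in exons, of which sites 7 and 8 were higher in DKO and site 9, called in DKO alone, could not be tested. Site 8, chr12:110781018-110781431, had fold enrichments of 17.7 and 18.8 in WT and 46.3 and 48.3 in DKO (log2 change 1.33 ± 0.10 SE, limma adjusted p = 0.002). Site 7, chr12:110780165-110780639, had 9.33 and 13.3 in WT and 20.7 and 21.8 in DKO (log2 change 0.89 ± 0.18 SE, limma adjusted p = 0.014), and its call was lost without DKO replicate 1 (limma adjusted p = 0.055) and without DKO replicate 2 (limma adjusted p = 0.072). Site 9, chr12:110781798-110781968, was called in DKO alone, at 10.9 and 7.23. Just outside the gene the direction turned. At chr12:110777274-110777488, 1.802 kb upstream of the Meg3 start, values were 8.23 and 9.64 in WT and 5.78 and 4.65 in DKO (log2 change -0.83 ± 0.14 SE, limma adjusted p = 0.0087), all WT above all DKO. At chr12:110738279-110738689, between Dlk1 and Meg3 and 40.7 kb upstream of Meg3, they were 25.7 and 28.2 in WT and 14.2 and 11.2 in DKO (log2 change -1.14 ± 0.14 SE, limma adjusted p = 0.0033).

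A pair of sites stood close together upstream of Dlk1. The strongest of the locus, chr12:110675787-110676384, 14.9 kb upstream, had 33.2 and 32.3 in WT and 36.1 and 34.7 in DKO (log2 change 0.06 ± 0.098 SE, limma adjusted p = 0.63). Its neighbour chr12:110674415-110674825 had 13.5 and 14.9 in WT and 27.6 and 27.9 in DKO (log2 change 0.92 ± 0.10 SE, limma adjusted p = 0.0029), so that only the weaker of the pair passed the test. That call rested on keeping the sites apart, since with peaks joined within 1000 bp the joint site, which takes the stronger peak of each library, had a log2 change of 0.06 (limma adjusted p = 0.62). Farther along, in an intron of the noncoding gene Rian, chr12:110847340-110847563 had 8.601 and 9.27 in WT and 16.3 and 14.9 in DKO (log2 change 0.76 ± 0.10 SE, limma adjusted p = 0.0045).

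**Figure D3:**
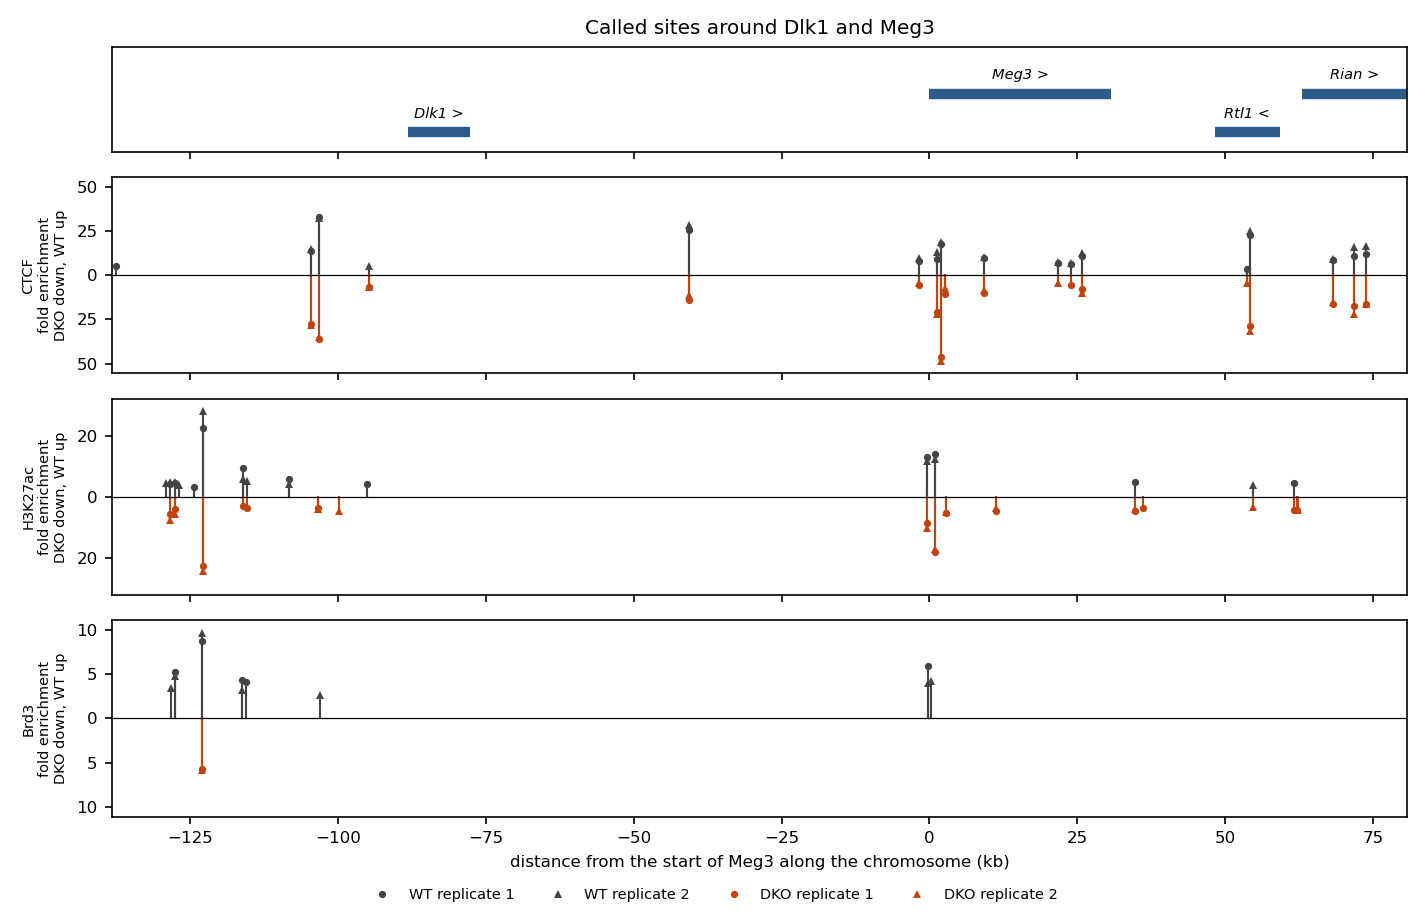
Called sites of CTCF (ESCs), H3K27ac and Brd3 (MEFs) around Dlk1 and Meg3, by distance from the Meg3 start (kb, horizontal) and fold enrichment (vertical, WT upward in grey, DKO downward in orange, 1 marker per library). DKO markers of CTCF reached 48.3 just inside Meg3, where the WT markers stopped at 18.8, and Brd3 near the Meg3 start had WT markers alone.

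At Peg3 the 2 sites that passed lay beyond the 3′ end of the gene and moved in opposite directions. Peg3 (chr7:6656603-6683132, minus strand) encodes a paternally expressed zinc finger protein. In an intron of Zim1, another imprinted zinc finger gene, chr7:6641306-6641973 had fold enrichments of 16.6 and 16.4 in WT and 42.6 and 44.01 in DKO (log2 change 1.34 ± 0.10 SE, limma adjusted p = 0.002). At chr7:6612183-6612714, between genes, they were 35.9 and 36.6 in WT and 18.8 and 17.1 in DKO (log2 change -1.07 ± 0.10 SE, limma adjusted p = 0.0022). WT and DKO stood well apart at both. Sites 5 and 6, in introns near the Peg3 start, did not pass. At chr7:6679788-6680934 values were 20.5 and 17.9 in WT and 28.9 and 21.6 in DKO (log2 change 0.33 ± 0.17 SE, limma adjusted p = 0.16), and at chr7:6681736-6682213 they were 12.6 and 14.02 in WT and 11.3 and 12.1 in DKO (log2 change -0.23 ± 0.11 SE, limma adjusted p = 0.15). An exon at the Peg3 start held a site in DKO alone, chr7:6682960-6683126, at 5.03 and 5.19.

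Peg10 and Mest each had 3 CTCF sites. Peg10 (chr6:4697306-4710514), a paternally expressed gene derived from a retrotransposon, shares its start region with Sgce. Both of its sites called in all libraries had lower fold enrichment in DKO. The stronger, chr6:4749377-4749747, 52.2 kb from the start, had 33.8 and 33.5 in WT and 21.00 and 21.1 in DKO (log2 change -0.72 ± 0.098 SE, limma adjusted p = 0.0043). The site beside the start, in an exon of Sgce, chr6:4697018-4697279, had 11.5 and 12.4 in WT and 8.56 and 9.56 in DKO (log2 change -0.45 ± 0.12 SE, limma adjusted p = 0.03), and its call was lost with any 1 of the 4 libraries left out (limma adjusted p from 0.05004 to 0.12). Mest (chr6:30673547-30698457), a paternally expressed gene of the hydrolase fold family, had all 3 sites in introns. At chr6:30686915-30687413 fold enrichments were 18.98 and 20.6 in WT and 30.6 and 32.9 in DKO (log2 change 0.63 ± 0.11 SE, limma adjusted p = 0.0087). At chr6:30682617-30683037 they were 19.6 and 21.1 in WT and 15.5 and 16.8 in DKO (log2 change -0.38 ± 0.11 SE, limma adjusted p = 0.039), a call that was lost with any 1 of the 4 libraries left out (limma adjusted p from 0.071 to 0.15), and the third site did not pass.

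Grb10 and Plagl1 each had 1 CTCF site that rose. Grb10 (chr11:11830511-11938686, minus strand) encodes an adaptor that restrains insulin and growth factor signalling. Its strongest site, chr11:11873356-11873933 in an intron, had 42.1 and 43.8 in WT and 36.4 and 36.1 in DKO (log2 change -0.29 ± 0.097 SE, limma adjusted p = 0.06). A close neighbour, chr11:11874914-11875327, had 25.8 and 26.98 in WT and 35.5 and 36.1 in DKO (log2 change 0.39 ± 0.099 SE, limma adjusted p = 0.027), and this call was lost with any 1 of the 4 libraries left out (limma adjusted p from 0.071 to 0.11). With peaks joined within 1000 bp the joint site gave a log2 change of -0.29 (limma adjusted p = 0.059), the opposite sign. The one member site seen in WT alone, chr11:11905804-11905996, also lay in an intron of Grb10, at 6.02 and 5.699. Plagl1 (chr10:12810497-12851500), a zinc finger gene that restrains cell growth, had its strongest site 3.27 kb upstream, chr10:12807024-12807498. The values there were 17.6 and 16.4 in WT and 39.8 and 27.7 in DKO (log2 change 0.92 ± 0.18 SE, limma adjusted p = 0.013), and the call was lost without WT replicate 2 (limma adjusted p = 0.061).

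Around the start of Kcnq1ot1 no CTCF peak was called in any of the 4 libraries. Kcnq1ot1 is a paternally expressed noncoding RNA that starts inside Kcnq1 and runs against it. Its start was placed at chr7:150482452 on the minus strand by an exact match of its RefSeq promoter sequence, given for GRCm38.p6, to mm9 at a single position. Within 50 kb of it, WT libraries held 4 and 3 H3K27ac peaks against 6 and 6 in DKO, and 1 and 0 Brd3 peaks against 0 and 2, with 0 H3K27me3 peaks in each. CEBPB, a leucine zipper transcription factor, had 2 and 2 peaks there in WT against 0 and 0 in DKO.

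H3K27ac covered more of the imprinted loci in both DKO libraries than in both WT libraries, while its peaks across the genome were fewer in DKO. The member windows held 68 and 63 peaks in WT and 76 and 71 in DKO (65.5 ± 3.54 against 73.5 ± 3.54, SD, n = 2 each). Those peaks covered 38701 and 36165 bp in WT against 51566 and 48791 bp in DKO, a log2 difference of 0.42 between means. Over the genome the peak number changed by -0.13 and the covered length by -0.01 on the log2 scale. As a share of all peaks the windows took 0.0801% and 0.0743% in WT and 0.0987% and 0.0915% in DKO. None of these 3 measures overlapped between genotypes, and each gave the smallest p of the two-sided exact permutation test, 0.33. The lowest background was 1.64 and 1.44 reads in WT and 1.77 and 1.87 in DKO, higher in DKO like the length under peaks at the loci, and its part in the difference was not tested. The Grb10 locus held 21381 and 20284 of the base pairs in WT and 31283 and 29719 in DKO, and without it the log2 difference was 0.25.

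By gene window, Meg3 had the largest difference in H3K27ac peak number among the members on the log2 scale. It held 4 and 4 H3K27ac peaks in WT and 9 and 7 in DKO. Peg3 had 11 and 11 against 16 and 12, Grb10 29 and 30 against 33 and 34, and Plagl1 3 and 3 against 4 and 4. In these 4 of the 9 member windows both DKO libraries stood above both WT libraries, which held for 5.91% of all 37273 gene windows. Those include windows with few or no peaks. A mean of at least 2 peaks per library was held by 8 of the 9 members and by 23353 of all windows, whose share was not counted. Dlk1 had 9 and 8 peaks in WT and 6 and 7 in DKO, the only member with both DKO libraries below, which held for 20% of windows. H19 (3 and 1 against 3 and 2), Mest (6 and 4 against 4 and 3) and Peg10 (3 and 2 against 1 and 2) overlapped, and Igf2 had 0 in each library. Windows of Dlk1 and Meg3 shared the stretch between the genes, so they are not independent.

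**Figure D4:**
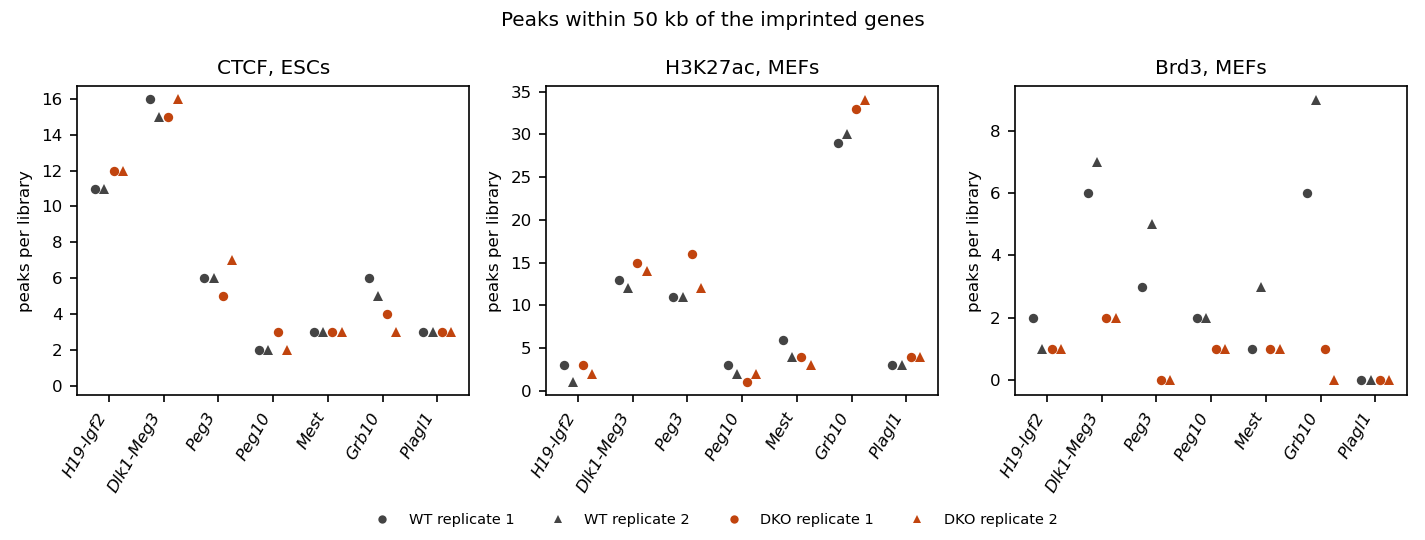
Peaks per library (vertical) within 50 kb of the imprinted genes at each of the 7 loci (horizontal) for CTCF in ESCs and H3K27ac and Brd3 in MEFs; each point is 1 library, grey for WT and orange for DKO. CTCF was lower in DKO at Grb10 (6 and 5 against 4 and 3) and overlapped at the other loci except H19-Igf2 (11 and 11 against 12 and 12), H3K27ac was higher in DKO at Grb10, Dlk1-Meg3, Peg3 and Plagl1, and no DKO library had more than 2 Brd3 peaks at a locus.

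H3K27ac strength at single sites passed the test once. Of 95 sites 30 were called in all libraries (31.6%, against 40.4% of all 104443 H3K27ac sites), and 1 of the 30 passed limma, against 4.19% of all 42234 sites tested, while 9 had an unadjusted p under 0.05, against 22.7% of all sites tested. The median log2 change of the 30 was 0.18, against 0.00 over all sites tested. The called site, chr11:11778890-11782927, lay in introns of Ddc, the dopa decarboxylase gene next to Grb10, and of 1700042O10Rik, and straddled the edge of the window. Its fold enrichment was 18.7 and 10.8 in WT and 26.8 and 29.6 in DKO (log2 change 1.07 ± 0.26 SE, limma adjusted p = 0.038), and the call was lost without WT replicate 2 (limma adjusted p = 0.19) and without DKO replicate 1 (limma adjusted p = 0.054). With a library left out the log2 change of this site ran from 0.69 (without WT replicate 2) to 1.45 (without WT replicate 1). Sites seen in both WT libraries alone numbered 5 (5.26%, against 5.83% of all sites) and in both DKO libraries alone 8 (8.42%, against 4.4%), of which 4 lay at Grb10, 3 at Dlk1-Meg3 and 1 at Plagl1. These counts moved with a library left out, to 10, 12 and 8 WT-only sites without WT replicate 1, WT replicate 2 and DKO replicate 1, and to 14, 24 and 26 DKO-only sites without WT replicate 1, DKO replicate 1 and DKO replicate 2. Over all sites they rose too, WT-only from 6084 to 16831, 17579 and 8949, and DKO-only from 4593 to 7690, 13287 and 12602, in the same order. The 5 with the highest mean −log10 q among these 13 were 2 neighbours between Ddc and Grb10 in DKO alone, chr11:11801770-11802296 at 4.92 and 5.79 and chr11:11801185-11801453 at 5.07 and 6.71, and 3 in WT alone. The latter were chr12:110670839-110671124 upstream of Dlk1 at 5.84 and 4.11, chr7:6648633-6649112 in an intron of Zim1 at 5.404 and 6.03, and chr6:30637439-30637729 in an intron of Tsga14 at 4.31 and 6.42.

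The strongest acetylated site of each other locus had overlapping values in WT and DKO. Upstream of Dlk1, chr12:110654975-110657782 had 22.6 and 28.1 in WT and 22.7 and 24.5 in DKO (log2 change -0.01 ± 0.23 SE, limma adjusted p = 0.98). In an intron of Peg3, chr7:6681638-6682202 had 14.3 and 18.8 in WT and 22.3 and 15.8 in DKO (log2 change 0.28 ± 0.25 SE, limma adjusted p = 0.55). At the shared start of Peg10 and Sgce, chr6:4696065-4697136 had 13.2 and 14.8 in WT and 13.5 and 13.6 in DKO (log2 change 0.04 ± 0.22 SE, limma adjusted p = 0.94). None of these 3 passed the test. In an exon of Tsga14, upstream of Mest, chr6:30643072-30643846 had 16.1 and 18.6 in WT and 17.5 and 18.9 in DKO. At Mrpl23, beyond H19, chr7:149718995-149719808 had 8.35 and 10.4 in WT and 10.3 and 11.4 in DKO. Beyond Plagl1, in an intron of Fam164b, chr10:12890726-12891491 had 8.98 and 6.31 in WT and 8.66 and 7.81 in DKO. The adjusted p of the last 3 lay above 0.05 as well. Of the 52 CTCF sites of ESCs 12 (23.1%) overlapped an H3K27ac peak of MEFs, against 11.3% of all CTCF sites, and 4 overlapped Brd3 (7.69%, against 5.70%).

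H3K27ac sites within 5 kb of a member start that were called in all libraries were also looked at, a choice made after the values were seen, and none passed the test. Beside the Meg3 start, chr12:110778492-110779021, just upstream, had 13.2 and 11.9 in WT and 8.53 and 10.2 in DKO (log2 change -0.35 ± 0.22 SE, limma adjusted p = 0.38). On the other side, chr12:110779260-110781141, in an intron, had 13.99 and 12.5 in WT and 18.1 and 17.2 in DKO (log2 change 0.50 ± 0.22 SE, limma adjusted p = 0.2). The upstream values were lower and the intron values higher in both DKO libraries. Farther into Meg3, chr12:110781862-110782114 was called in DKO alone at 5.42 and 4.89, and chr12:110790305-110790658 at 4.63 and 3.51. Near the Peg3 start, beside its strongest site, chr7:6680329-6681122 had 16.5 and 15.7 in WT and 10.2 and 10.04 in DKO (log2 change -0.59 ± 0.22 SE, limma adjusted p = 0.13), and chr7:6682469-6683040 had 7.53 and 4.67 in WT and 7.64 and 6.77 in DKO (log2 change 0.36 ± 0.25 SE, limma adjusted p = 0.43). The first was lower in both DKO libraries and the second overlapped. Near the Grb10 start, chr11:11937094-11937378 had 9.95 and 9.53 in WT and 6.57 and 5.48 in DKO (log2 change -0.62 ± 0.22 SE, limma adjusted p = 0.12). Its neighbours were chr11:11937616-11939139, with 14.2 and 17.3 in WT and 13.05 and 9.997 in DKO (log2 change -0.38 ± 0.24 SE, limma adjusted p = 0.37), and chr11:11932494-11936967, with 15.3 and 12.3 in WT and 13.8 and 14.7 in DKO (log2 change 0.13 ± 0.22 SE, limma adjusted p = 0.77). The last of these overlapped and the others were lower in both DKO libraries.

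**Figure D5:**
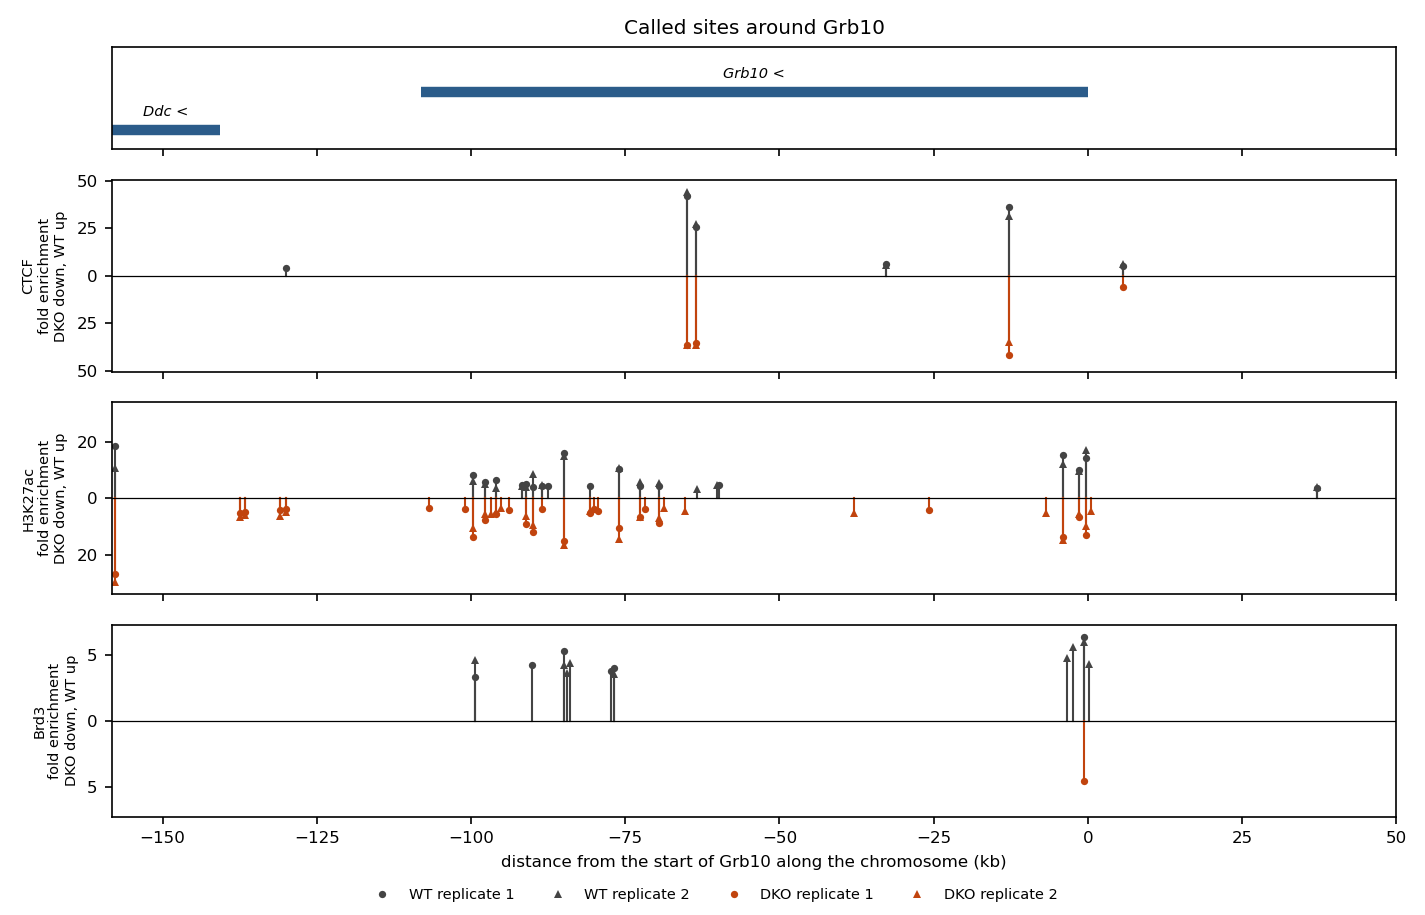
Called sites of CTCF (ESCs), H3K27ac and Brd3 (MEFs) around Grb10, by distance from the Grb10 start (kb, horizontal, the gene running to the left) and fold enrichment (vertical, WT upward in grey, DKO downward in orange, 1 marker per library). H3K27ac had 4 DKO-only sites between Ddc and Grb10, and Brd3 had 1 DKO marker against WT markers at all 11 sites.

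Brd3 had fewer peaks at the imprinted loci in both DKO libraries than in both WT libraries. The windows held 20 and 27 peaks in WT and 6 and 5 in DKO (23.5 ± 4.95 against 5.50 ± 0.707, SD, n = 2 each, log2 difference -2.10, two-sided exact permutation p = 0.33). Across the genome the log2 difference was -1.65. Relative to all Brd3 peaks of a library the windows held 0.0637% and 0.0816% in WT and 0.0669% and 0.0433% in DKO, which overlapped. The lowest background was 1.75 and 1.89 reads in WT and 1.24 and 1.54 in DKO, lower in DKO like the peak number, and its part in the result was not tested. With the same number of top peaks taken from each library, the mean number over the windows was equal in both genotypes (log2 difference 0.00). That setting left only 5 Brd3 sites at the loci, 3 of them in all libraries, so the equality rests on few peaks. Of the 33 Brd3 sites 32 overlapped an H3K27ac peak (97.0%, against 93.6% of all Brd3 sites).

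In both WT libraries alone 8 Brd3 sites were called (24.2%, against 27% of all 39745 sites), none in both DKO libraries alone (against 0.0428%), and 4 in all libraries (12.1%, against 13.6%). None of these 4 passed limma with each library centred on its median, and 0 had an unadjusted p under 0.05, while 1.48% of all 5422 sites tested passed and 18.9% had an unadjusted p under 0.05. Without centring none passed either and 2 had an unadjusted p under 0.05, the sites upstream of Dlk1 and at Mrpl23, while 19.2% of all sites tested passed, 1018 lower and 23 higher, and 37.7% had an unadjusted p under 0.05. Of the WT-only sites 3 lay in introns of Grb10, chr11:11853635-11853904 at 5.27 and 4.19, chr11:11839170-11839488 at 3.33 and 4.57 and chr11:11861669-11861945 at 3.999 and 3.55. Near Dlk1 and Meg3 there were 3, at the Meg3 start (chr12:110778728-110779115, 5.895 and 3.96) and upstream of Dlk1 (chr12:110651340-110651974, 5.26 and 4.84, and chr12:110662538-110663289, 4.304 and 3.24). The remaining pair lay near the start of Peg10 (chr6:4696083-4696458, 4.02 and 6.96) and upstream of Peg3 (chr7:6730177-6730476, 3.79 and 5.01). All 8 had fold enrichments below 7. With the threshold at a q of 0.0001 there were 5, with equal numbers of top peaks 0, and without a WT library, when a single one counts, 22 (replicate 1) or 14 (replicate 2). Over all sites the number rose from 10731 to 22029 (without replicate 1) or 20481 (without replicate 2).

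The 4 Brd3 sites called in all libraries were the strongest of their loci. At the start of Peg10, chr6:4696512-4697141 had 15.4 and 9.46 in WT and 7.05 and 10.9 in DKO (log2 change -0.05 ± 0.29 SE, limma adjusted p = 0.94). Upstream of Dlk1, chr12:110655389-110657120 had 8.72 and 9.64 in WT and 5.699 and 5.805 in DKO (log2 change -0.26 ± 0.24 SE, limma adjusted p = 0.57). These changes are relative to the median site, whose uncentred log2 change was -0.39. The site in an intron of Tsga14, chr6:30642810-30643768, had 6.97 and 7.03 in WT and 6.59 and 4.57 in DKO, and that in an intron of Mrpl23, chr7:149719004-149719763, had 7.93 and 6.22 in WT and 4.71 and 5.004 in DKO. At Grb10 and Peg3 no site was called in all libraries. Their strongest by mean −log10 q, chr11:11936086-11936555 and chr7:6681787-6682124, were called in WT replicate 2 alone. That mean covers only the libraries that called a site, so the rank of a site called once rests on 1 library. Brd3 site 10 of Grb10, called in both WT libraries, had a mean WT fold enrichment of 6.13. By gene window Dlk1 had 5 and 5 peaks in WT and 2 and 2 in DKO, Peg3 3 and 5 against 0 and 0, and Grb10 6 and 9 against 1 and 0. Meg3 had 1 and 2 against 0 and 0, and Peg10 2 and 2 against 1 and 1. Both DKO libraries thus stood below both WT libraries in 5 of the 9 member windows, against 44.7% of all 37273 gene windows, and above them in 0, against 0.287%. H19 (1 and 1 against 1 and 1), Igf2 (1 and 0 against 0 and 0) and Mest (1 and 3 against 1 and 1) overlapped, and Plagl1 had no Brd3 peak.

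Among the members, H3K27me3 was called at Igf2 only, and in WT libraries only. Inside Igf2, within an exon of its antisense transcript Igf2as, chr7:149846027-149846828 had fold enrichments of 5.302 and 6.53. A second site, chr7:149849138-149849307, in an intron of Igf2, was called in WT replicate 1 alone, at 4.95. The share of sites in both WT libraries alone was 1 of 2 here and 5.52% of all 1068 H3K27me3 sites, 0.468% were in both DKO libraries alone and 0.749% in all 4. The lists held 553 and 388 peaks in WT and 213 and 117 in DKO, and a peak not called in DKO does not show that the mark was absent. Without WT replicate 2 both sites counted as WT-only, while over all sites the WT-only number rose from 59 to 486. The first was not called in both WT libraries at a q of at most 0.0001.

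Among the other 12 antibodies, few peaks fell near these genes except those of the pluripotency factors. In MEFs, CEBPB had 7 and 6 peaks over the windows in WT and 2 and 2 in DKO, with 3 and 3 against 1 and 1 at Grb10 and 2 and 2 against 0 and 0 at Peg3. The acetyltransferase p300, which writes H3K27ac, had 3 and 4 in WT and 1 and 1 in DKO, and histone H1 had 0 throughout. In ESCs Nanog had 40 and 39 against 42 and 49, Oct4 16 and 16 against 24 and 26, Sox2 11 and 9 against 14 and 16, and Klf4 3 and 2 against 2 and 2. Nanog, Oct4 and Sox2 had more peaks in both DKO libraries than in both WT libraries, and Klf4 overlapped. Their lists as a whole moved likewise, since the log2 difference was 0.20 over the windows and 0.27 over the genome for Nanog, 0.64 and 1.28 for Oct4, and 0.58 and 0.70 for Sox2. For CEBPB it was -1.70 and -1.50, and for p300 -1.81 and -1.01. In B cells 1 Ikaros peak was called in WT replicate 2 and none of Ets1, Irf8, Pax5 or Oct2.

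Neighbours in the same clusters and genes of other imprinted loci were counted in the same way, over every listed gene with a record in the annotation. Windows of neighbours share peaks with those of members (that of Rtl1 with Meg3 and that of Ddc with Grb10, for example), so the 2 lists are not independent. Windows within a list share peaks too, such as those of H13 and Mcts2 or of Igf2r and Airn, so the genes counted are not separate loci. For CTCF, both DKO libraries stood above both WT libraries at 1 of 26 neighbours (Cobl, 7 and 7 against 9 and 9) and below at 1 (Ddc, 8 and 8 against 5 and 5), at 2 and 4 of 24 genes of other imprinted loci, and at 0 and 1 of the 9 members (Grb10, 6 and 5 against 4 and 3). Over all 37273 windows 10.7% were higher and 3.51% lower. For H3K27ac, 4 of 26 neighbours were higher (Ddc, with 40 and 36 against 51 and 53, Rtl1, Phactr2 and Klf14) and 6 lower, and 2 of 24 genes of other loci were higher and 6 lower, where 5.91% of all windows were higher and 20% lower. For Brd3, 13 of 26 neighbours and 16 of 24 genes of other loci were lower and 0 higher, where 44.7% of all windows were lower and 0.287% higher.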

How the data were processed

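The sources describe ChIP-seq in WT and DKO MEFs, ESCs and B cells, sequenced at 75 or 101 bp. Per the labels and the study's methods, the authors trimmed reads with cutadapt 1.16, aligned them with BWA to mm9, removed blacklisted regions and called narrow peaks in each library with MACS2 2.1.1.20160309. The deposited lists hold, for each peak, a fold enrichment over the local background (a ratio), −log10 p and −log10 q, a score made from the q, and the position of the summit, a value of another kind. The lowest deposited −log10 q in the lists of the 4 main antibodies was 2.00. The lists hold no read counts, so depth is known only through the background solved from them.

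Peaks of the 4 libraries of an antibody were joined where they overlapped by 1 bp, each library giving its highest fold enrichment. Sites called in all 4 libraries were compared with limma 3.58.1 in R 4.3.3 on log2 fold enrichment, each library centred on its median, with Benjamini-Hochberg adjustment over all sites of the antibody and a threshold of 0.05. H3K27me3 had 8 such sites, none at the loci. Peak numbers over the loci were compared with two-sided exact permutation tests (scipy 1.17.1). Sequences were read from mm9 with pysam 0.24.0. A planned limma test of peak number per gene window called unchanged windows when tested on simulated data, so its calls are not given. Replicates often had equal numbers, and their part in the false calls was not tested. Windows of all genes, with no filter on low numbers, were instead counted as overlapping between genotypes or not.

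Named were all members, the site of each locus and antibody with the highest mean −log10 q, every site past the test, and sites called in both libraries of 1 genotype alone (beyond 10 for an antibody, the 5 with the highest mean −log10 q). These means are over the libraries that called a site. The members, lists and tests were chosen with earlier results of these data known. Alternatives were stricter peaks, equal numbers of top peaks, windows of 20 and 100 kb, wider joining, no centring, a trended prior, a replicate block and each library left out.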

Additional observations from a re-analysis of the deposited data

How the results depend on the processing

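Of the 20 sites that passed the test (19 of CTCF and 1 of H3K27ac), 10 kept direction and side of the threshold under each alternative run on them (among them Dlk1-Meg3 sites 5, 6, 8 and 16 and Peg3 sites 2 and 3 of CTCF), 10 lost the call under at least 1, and CTCF Grb10 site 3 also turned, to a log2 change of -0.29, when peaks were joined within 1000 bp. With equal numbers of top peaks, the log2 difference of peak number over the loci was -0.10 for CTCF, 0.30 for H3K27ac and 0.00 for Brd3. Relative to the library total it was -0.066, 0.30 and -0.40, in base pairs 0.088, 0.42 and -2.53, and in 20 kb windows 0.045 for CTCF and -3.27 for Brd3. Without the Grb10 locus, an alternative chosen after seeing the data like the shorter motif and the counts of windows without overlap, the H3K27ac difference in base pairs was 0.25. In 20 kb windows 12 CTCF and 0 H3K27ac sites passed the test, and in 100 kb windows 29 and 5. The H3K27ac count was 3 with a trended prior, with joining within 1000 bp and with a replicate block. Over all sites tested 7.50%, 5.98% and 6.26% passed in these settings, against 4.19% in the main fit.

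WT-only sites of CTCF numbered 2 with top peaks and in 100 kb windows, and 1 to 4 with a library left out. DKO-only sites of CTCF numbered 1 with joining and 3 to 5 with a library left out. For H3K27ac, WT-only sites numbered 3 in 20 kb and 10 in 100 kb windows and 6 to 12 with a library left out, DKO-only sites 5 with joining, 3 in 20 kb and 19 in 100 kb windows and 8 to 26 with a library left out, and sites in all libraries 19 with joining, 19 in 20 kb and 53 in 100 kb windows. For Brd3, WT-only sites numbered 5 at a q of at most 0.0001, 0 with top peaks, 5 in 20 kb and 16 in 100 kb windows and 8 to 22 with a library left out, and 1 site was in all libraries in 20 kb windows. The WT-only count of H3K27me3 was 0 at the stricter q and with top peaks and ranged from 1 to 2 with a library left out. A site counts as of 1 genotype more easily with 1 library of that genotype, and the causes of the other shifts were not tested. Counts over all sites rose too with a library left out. DKO-only H3K27ac sites went from 4593 to 13287 or 12602 without a DKO library. WT-only Brd3 sites went from 10731 to 22029 or 20481 without a WT library.

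The labels give both genotypes replicates 1 and 2. Deviations of same-numbered libraries correlated at 0.0175 for CTCF, 0.00635 for H3K27ac and 0.000243 for Brd3. Whether same-numbered libraries were prepared together is not given in the sources used here and was not tested. With a replicate block limma called 24369 CTCF sites against 25166 without, 2644 H3K27ac sites against 1769, and 326 Brd3 sites against 80. Peak lists miss what lies under their threshold, and read depth is not in the files, so how far it limits each list was not tested.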
